A study of Mus musculus with 18 samples.

Results

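The genes described here are 9 enzymes and regulators of lipolysis, the release of fatty acids and glycerol from stored triglyceride: Pnpla2, Abhd5, Lipe, Mgll, G0s2, Pnpla3, Hilpda, Aqp7 and Ces1d. They were picked by symbol from what is known of lipolysis, with earlier results of these data known, and each symbol matched a single row of the 54347 rows in the count table. All 9 passed the filter on low counts that kept 18728 genes for testing. Polyadenylated RNA was sequenced from 3 fat depots of each of 6 mice at 12 weeks of age, which gave 18 libraries in 6 groups of 3. The depots were the brown fat between the shoulder blades (interscapular, iBAT) and the white fat of the groin (inguinal, iWAT) and of the epididymis (eWAT). Of the mice, 3 were wild type (wt) and 3 were knockout (ko) for Gm15551, a long noncoding RNA gene. The knockout carried a CRISPR/Cas9 deletion that includes exon 1, on the C57BL/6N background, and rests on a single deletion allele. The series describes both genotypes as litter mates. The study's methods give chow for the mice of the transcriptome work, another passage of the study names high-fat diet as well, and the labels give no diet. The RNA was that of bulk tissue, in which fewer fat cells and less RNA per fat cell cannot be told apart.

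Triglyceride in the lipid droplet of a fat cell is cleaved in steps, each of which frees a fatty acid. Adipose triglyceride lipase, encoded by Pnpla2, performs the initial step, hormone-sensitive lipase, encoded by Lipe, cleaves mainly the diglyceride, and monoglyceride lipase, encoded by Mgll, completes the breakdown to glycerol. Abhd5 (also CGI-58) activates adipose triglyceride lipase, while G0s2 and Hilpda inhibit it. Catecholamines start the process through cyclic AMP and protein kinase A, which phosphorylates lipase and droplet proteins, so that much of the control lies outside transcript levels. In white fat the products are exported to feed other organs, and in brown fat the fatty acids also fuel and activate heat production.

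Windows of 250 bases before an annotated start in RefSeq (GRCm38.p6) were matched for 8 of the 9 genes, 12 windows in all. The bases next to the start are shown for Pnpla2 and G0s2, the genes that differed between iBAT and iWAT in the tests below, and for Pnpla3, whose window holds the full cyclic AMP response element TGACGTCA. This element was the only match marked, in capitals, and no other capitals appear. Each stretch is 150 bases long, runs 5′ to 3′ on the strand of its gene and ends before the annotated gene, at chr7:141455038-141455187 (plus strand) for Pnpla2, chr1:193273218-193273367 (minus strand) for G0s2 and chr15:84167666-84167815 (plus strand) for Pnpla3.
Pnpla2: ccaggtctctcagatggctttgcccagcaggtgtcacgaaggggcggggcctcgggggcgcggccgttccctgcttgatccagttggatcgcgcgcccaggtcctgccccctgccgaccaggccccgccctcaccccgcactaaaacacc
G0s2: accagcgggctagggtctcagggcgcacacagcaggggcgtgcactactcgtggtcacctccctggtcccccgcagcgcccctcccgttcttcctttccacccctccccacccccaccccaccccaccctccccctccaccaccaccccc
Pnpla3: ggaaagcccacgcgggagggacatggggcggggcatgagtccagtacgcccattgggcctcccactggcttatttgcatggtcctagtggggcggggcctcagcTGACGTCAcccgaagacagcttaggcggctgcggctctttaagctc

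The element in Pnpla3 began 46 bases before the annotated start, and the same letters were present in 1.55% of all 32851 windows of this length. Motifs were searched on both strands. The nuclear receptor motif AGGTCA was found in windows of Aqp7 and Abhd5 and in 14.0% of all windows. The E-box CACGTG and the forkhead motif GTAAACA were each found in windows of Mgll and Lipe, and in 6.02% and 3.17% of all windows. The hypoxia response core ACGTG, which lies within the E-box, was found 43 bases before a start of Hilpda, in windows of Mgll and Lipe, and in 16.6% of all windows. The direct repeat of AGGTCA with 1 base between its copies and the TATA box TATAAA had no match in the 12 windows, and were present in 0.033% and 12.4% of all windows. These matches are descriptions of the letters and not evidence of binding.

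The labels were checked before the comparisons. Gm15551 had 40 to 316 counts in the wild type libraries and 0 to 4 in the knockout libraries. Ucp1, the uncoupling protein of brown fat, reached 3422 to 7994 CPM (counts relative to the library total) in iBAT and at most 55.3 CPM in the white tissues, and Adipoq, the adipocyte hormone adiponectin, was present in every library. CPM here uses library totals scaled by the trimmed mean of M values (TMM). Total counts ranged from 14997901 to 34389586 per library. Some white libraries held transcripts of neighbouring tissues. A list of 8 lymph node lymphocyte markers summed to 997 CPM in iWAT wt replicate 3 and 436 CPM in iWAT ko replicate 2, against at most 17.9 CPM in the other iWAT libraries. Skeletal muscle markers (8 genes) reached 4641 CPM in sum in iWAT ko replicate 1 and at most 24.0 CPM elsewhere, and a list of 9 epididymis and sperm markers summed to 4877 CPM in eWAT ko replicate 3 and at most 19.7 CPM elsewhere. Values without the lymph node or epididymis libraries are given in the accounts of single genes, and values without the muscle library for some of them. TMM moves the libraries of brown and white fat apart. The share of mitochondrially encoded transcripts was 22.9% to 27.0% in iBAT and 3.77% to 9.64% in the white libraries, and TMM gave factors between 0.617 and 0.744 for the iBAT libraries but from 1.06 to 1.44 for white fat, so a given share of a library counts for more in iBAT after scaling.

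Levels of different genes were set side by side per length, as CPM per kb of annotated exon. Pnpla2 was the highest of the 9 in each tissue, with mean levels of 1432 ± 28.2, 683 ± 235 and 516 ± 162 CPM per kb in iBAT, iWAT and eWAT (SD, n = 6). Hilpda was the lowest, at 4.82 ± 1.26, 4.13 ± 0.607 and 5.39 ± 0.761 CPM per kb. Abhd5, which partners Pnpla2, was next to the bottom at 29.9 ± 4.32, 24.7 ± 6.75 and 26.7 ± 8.75 CPM per kb, and Aqp7 stood just above it. In iBAT the middle of the order ran from Ces1d (534 ± 45.3) and G0s2 (506 ± 222) to Pnpla3 (340 ± 39.6), Lipe (325 ± 25.8) and Mgll (259 ± 32.8), and Ces1d and G0s2 did not differ beyond their spread, nor did Pnpla3 and Lipe. In eWAT the levels of Pnpla3, G0s2, Lipe, Ces1d and Mgll lay between 284 and 332 CPM per kb with SDs of 57.9 to 104, so their order there was within the spread. With the longest annotated transcript as the length, 6, 7 and 5 genes kept their rank in iBAT, iWAT and eWAT, and Pnpla2 and Hilpda kept theirs throughout. With that length Lipe (515 ± 40.9 CPM per kb) lay above Pnpla3 (401 ± 46.6) in iBAT (SD, n = 6), so their likeness there depends on the length used.

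The summed level of the 9 genes was 3516 ± 258 CPM per kb in iBAT, 2087 ± 815 in iWAT and 2086 ± 549 in eWAT (SD, n = 6). After TMM scaling the iBAT libraries, from 3114 to 3816, lay above all white libraries, which reached at most 2947 in iWAT and 2562 in eWAT. On plain library totals this order was absent, with sums from 2220 to 2543 for iBAT that lay inside the ranges of iWAT (1158 to 3364) and of eWAT (1529 to 3015). Of the summed CPM per kb, Pnpla2 supplied 40.9 ± 2.91% in iBAT, 34.1 ± 6.07% in iWAT and 24.8 ± 3.92% in eWAT (SD, n = 6). The share ranged from 37.6% to 45.3% in the iBAT libraries and from 19.4% to 28.3% in the eWAT libraries, without overlap, while the iWAT libraries ran from 24.9% to 40.0% and overlapped both. Shares in the same sum are bound to each other. Those of Mgll (6.59% to 8.36%) and Lipe (8.32% to 10.4%) in the iBAT libraries lay below all white libraries, where Mgll supplied 10.3% to 17.1% and Lipe 11.7% to 15.3%, although neither level was called between tissues after TMM.

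**Figure D1:**
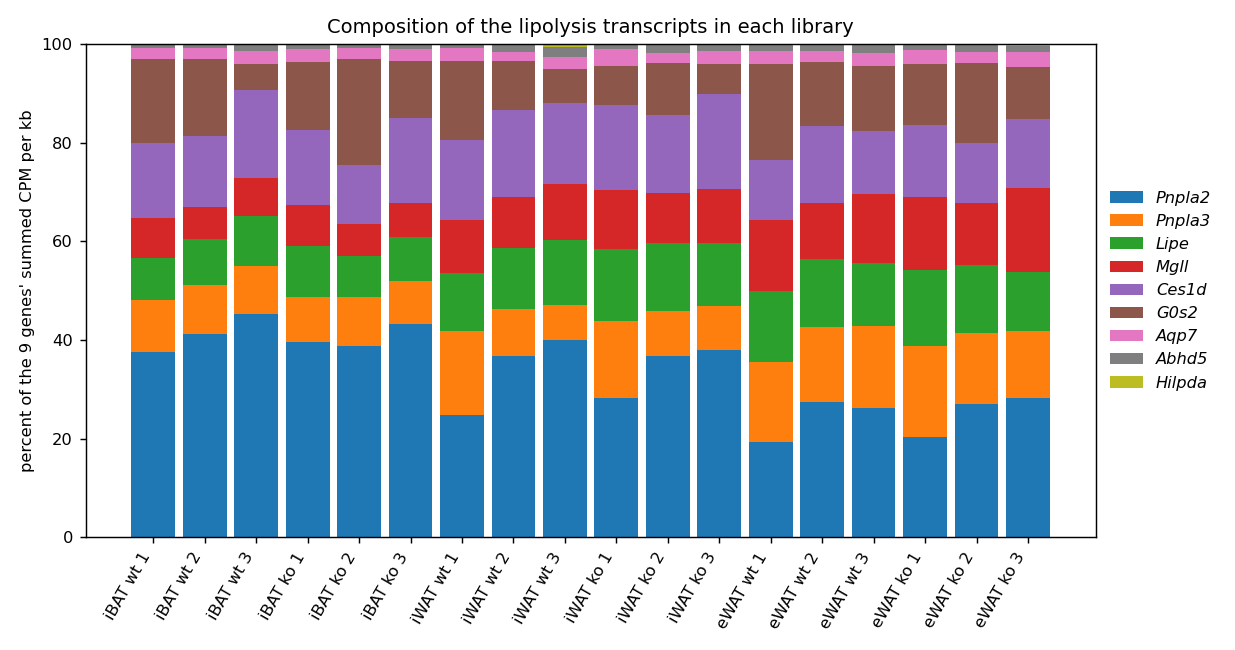
Each bar is a library, and its segments give the percent of the summed CPM per kb that each of the 9 genes supplied. Pnpla2 (bottom segment) takes 37.6% to 45.3% in the 6 iBAT libraries and 19.4% to 28.3% in the 6 eWAT libraries.

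Between tissues, the question was which genes of the set separate brown from white fat. In iBAT against iWAT, 2 of the 9 genes were called by edgeR at an adjusted p under 0.05, Pnpla2 and G0s2, both higher in iBAT, where 54.3% of all tested genes were called and 24.0% were called as higher. In iBAT against eWAT, 2 of the 9 were called, Pnpla2 and Ces1d, again both higher in iBAT, with a background of 54.6% called and 24.4% called as higher. DESeq2 called 3 of the 9 in each of these comparisons, all higher in iBAT, and 55.3% and 55.1% of all tested genes. In iWAT against eWAT, 0 of the 9 were called by edgeR, which called 10.2% of all tested genes, and 1 had an unadjusted p under 0.05. DESeq2 also called 0 of the 9, and 14.4% of all tested genes. Without the 4 libraries with other tissues Pnpla2 (log2 fold change 0.63, adjusted p = 0.0482, against 0.40 and 0.338 with all libraries) and Ces1d (0.57, adjusted p = 0.0401) were called in that comparison, both higher in iWAT, where that fit called 2066 of 20162 genes. For 0 of the 9 did the iWAT and eWAT libraries separate, against 4.62% of all tested genes. The median log2 fold change of the 9 genes was 0.43, 0.17 and -0.11 in the 3 comparisons, and that of all tested genes was -0.14, -0.17 and 0.01.

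The comparisons with iBAT depended on the scaling. On plain library totals, without TMM, the median log2 fold change of all tested genes was -0.95 against iWAT and -1.04 against eWAT, and 76% and 78.7% of genes were called, 7.68% and 8.43% as higher in iBAT. Of the 9 genes, 4 were then called in iBAT against iWAT, Abhd5, Lipe, Mgll and Hilpda, all lower in iBAT, with log2 fold changes from -0.58 to -0.50. Against eWAT 6 were called, with Pnpla2 higher (0.63, adjusted p = 0.0103) and Abhd5, Lipe, Mgll, Pnpla3 and Hilpda lower, by values from -1.01 to -0.68. On totals of all other than mitochondrially encoded genes, also without TMM, the median of all genes was -0.62 and -0.68, Pnpla2 was higher in iBAT in both comparisons, and Mgll and Hilpda were called lower against eWAT. The directions given below for iBAT are therefore those after TMM, relative to the bulk of genes.

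**Figure D2:**
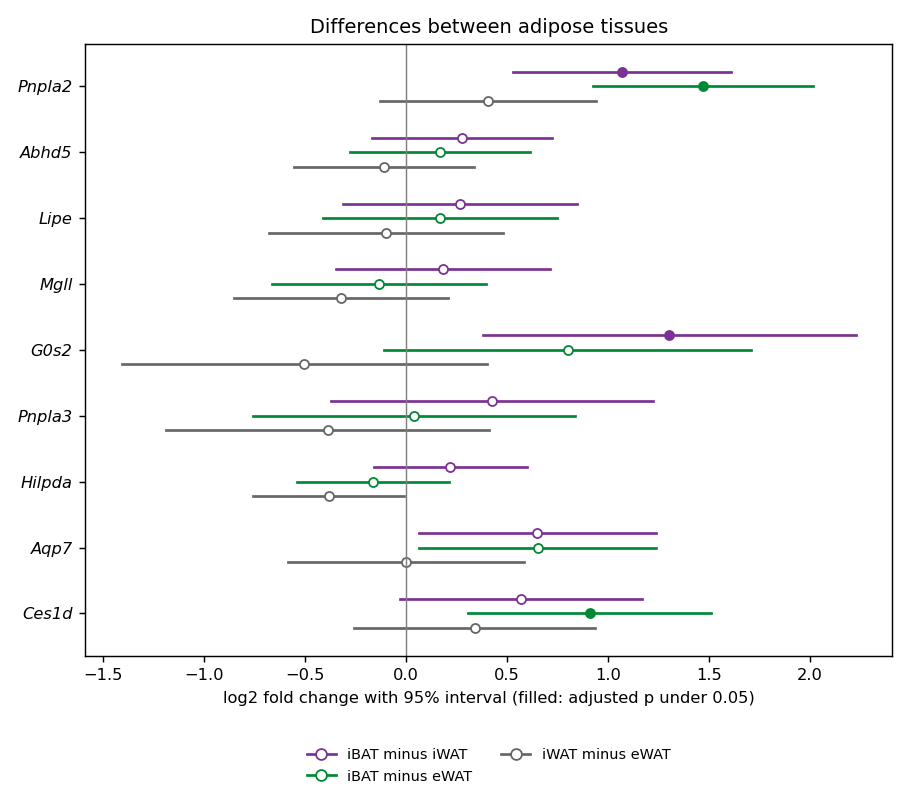
Points give the log2 fold change of each gene between 2 tissues from the edgeR fit after TMM scaling, and lines give the 95% interval. Filled points (Pnpla2 in both comparisons with iBAT, G0s2 against iWAT and Ces1d against eWAT) have an adjusted p under 0.05.

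Pnpla2 (ENSMUSG00000025509.15) lies on chromosome 7 from 141455198 to 141460743 on the plus strand. Its level in iBAT was nearly constant, with a lowest value of 4224, a median of 4325 and a highest value of 4460 CPM. In iWAT the lowest, median and highest values were 974, 2150 and 2838 CPM, and in eWAT they were 971, 1659 and 2122 CPM. After TMM every iBAT library was above every white library, and the white tissues overlapped. Per plain library total the iBAT values of Pnpla2, 2648 to 3164 CPM, overlapped those of iWAT (1401 to 3211 CPM) and stayed above those of eWAT (1307 to 2497 CPM). The iBAT level was 2.10-fold that of iWAT (log2 fold change 1.07 ± 0.26 SE, edgeR adjusted p = 0.00207) and 2.78-fold that of eWAT (1.47 ± 0.26, adjusted p = 0.000133). Of the 9 genes, 1 was higher in iBAT than in iWAT without overlap between libraries, where 17.7% of all tested genes did so and 34.6% did not overlap in either direction. The value in iWAT wt replicate 3, 974 CPM, was the lowest of that tissue, and without the lymph node libraries the iWAT mean rose from 2062 ± 710 (SD, n = 6) to 2465 ± 371 CPM (SD, n = 4), the log2 fold change was 0.81 and the adjusted p was 0.00639. Against eWAT the value was 1.36 without the library with epididymis transcripts (adjusted p = 0.000315). In wild type libraries alone the log2 fold change against iWAT was 1.09 with an adjusted p of 0.0851. On plain library totals it was 0.30 (adjusted p = 0.186), and without mitochondrially encoded genes in the totals 0.61 (adjusted p = 0.0178).

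Abhd5 (ENSMUSG00000032540.16, chromosome 9, 122351608 to 122381524, plus strand) did not follow Pnpla2. Its lowest, median and highest values were 151, 167 and 219 CPM in iBAT, 105, 131 and 216 CPM in iWAT, against 87.5, 165 and 214 CPM in eWAT. The 3 tissues overlapped throughout. The log2 fold change was 0.28 (95% interval -0.17 to 0.72, adjusted p = 0.278) against iWAT and 0.17 (-0.28 to 0.62, adjusted p = 0.515) against eWAT. Without the lymph node libraries the value of Abhd5 against iWAT was 0.14, without all 4 libraries with other tissues 0.06, and without the epididymis library that against eWAT was 0.04. Of its 50-base stretches, 15.1% are shared with other annotated genes, nearly all with the antisense gene A730085K08Rik. Whether the counting used strand is not given in the sources used here.

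G0s2 (ENSMUSG00000009633.3, chromosome 1, 193272161 to 193273217, minus strand) is a short inhibitor gene with 2 exons, which lies within the span of Lamb3 on the opposite strand and shares no 50-base stretch with another gene. In iBAT the wild type mice had 549, 474 and 141 CPM and the knockout mice 433, 713 and 337 CPM. In iWAT the wild type mice had 411, 222 and 48.1 CPM and the knockout mice 168, 127 and 124 CPM. In eWAT the wild type mice had 292, 290 and 264 CPM and the knockout mice 258, 334 and 104 CPM. The tissues overlapped, and the same mouse, wt replicate 3, had the lowest value both in iBAT and in iWAT. G0s2 had the widest spread of the set in iBAT, where the highest library was 5.04-fold the lowest, against 1.06-fold for Pnpla2. The iBAT level was 2.47-fold that of iWAT (log2 fold change 1.30 ± 0.44 SE, edgeR adjusted p = 0.0186), while against eWAT the log2 fold change was 0.80 (95% interval -0.11 to 1.71, adjusted p = 0.125). The call against iWAT depended on single mice. It was lost without wt replicate 2 (adjusted p = 0.0506), ko replicate 1 (0.0594) or ko replicate 2 (0.0944), and without the lymph node libraries the log2 fold change was 0.99 with an adjusted p of 0.0708. In wild type libraries alone it was 0.77, and on plain library totals it was 0.53 (adjusted p = 0.228). Against eWAT it was gained without wt replicate 3 (0.99, adjusted p = 0.0198).

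Hilpda (ENSMUSG00000043421.8, chromosome 6, 29272488 to 29275446, plus strand), an inhibitor that is induced by hypoxia and fatty acids in other settings, rested on only 55 to 228 counts per library. Its lowest, median and highest values were 4.13, 5.09 and 7.92 CPM in iBAT, 3.42, 4.60 and 5.52 CPM in iWAT, against 4.85, 5.85 and 7.17 CPM in eWAT. The log2 fold change of iBAT was 0.22 (95% interval -0.16 to 0.60) against iWAT and -0.16 (-0.54 to 0.22) against eWAT. Without the lymph node libraries the value of Hilpda against iWAT was 0.13, and without the epididymis library that against eWAT was -0.22. Between iWAT and eWAT it was -0.38 (-0.76 to -0.01), the smallest p of the set in that comparison (0.0463, and 0.187 after edgeR adjustment).

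Lipe (ENSMUSG00000003123.15, chromosome 7, 25379527 to 25398710, minus strand) had lowest, median and highest values of 1746, 1875 and 2200 CPM in iBAT, 620, 1832 and 2113 CPM in iWAT, against 801, 1839 and 2178 CPM in eWAT. The medians lay close together, and the low ends came from iWAT wt replicate 3 and eWAT ko replicate 3. The log2 fold change was 0.27 (95% interval -0.31 to 0.85, adjusted p = 0.431) against iWAT and 0.17 (-0.41 to 0.75, adjusted p = 0.623) against eWAT. Against iWAT the value of Lipe was -0.03 without the lymph node libraries and 0.37 without the muscle library. Without the epididymis library that against eWAT was 0.01. Of its 50-base stretches, 10.8% are shared with the antisense gene 4732471J01Rik.

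Mgll (ENSMUSG00000033174.17, chromosome 6, 88724412 to 88828360, plus strand) had lowest, median and highest values of 1174, 1240 and 1528 CPM in iBAT, 469, 1332 and 1607 CPM in iWAT, against 986, 1484 and 1816 CPM in eWAT. Its log2 fold change was 0.19 (95% interval -0.34 to 0.72) against iWAT and -0.13 (-0.66 to 0.40) against eWAT, with adjusted p-values of 0.556 and 0.673. Against iWAT the value of Mgll was -0.13 without the lymph node libraries and 0.28 without the muscle library. Without the epididymis library that against eWAT was -0.23. The enzymes of the later steps, Lipe and Mgll, had no called difference between tissues after TMM, with intervals that reach from a loss to a gain.

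Ces1d (ENSMUSG00000056973.6, chromosome 8, 93166068 to 93197838, minus strand) encodes a carboxylesterase, also known as triacylglycerol hydrolase. Its lowest, median and highest values were 1079, 1305 and 1353 CPM in iBAT, 312, 1036 and 1124 CPM in iWAT, against 375, 694 and 946 CPM in eWAT. After TMM all iBAT libraries were above all eWAT libraries, and the iBAT and iWAT libraries overlapped. The iBAT level was 1.88-fold that of eWAT (log2 fold change 0.91 ± 0.28 SE, edgeR adjusted p = 0.0123), and the log2 fold change against iWAT was 0.57 (95% interval -0.03 to 1.17, adjusted p = 0.0987). The call against eWAT was lost without wt replicate 1 (0.82, adjusted p = 0.0563) and in wild type libraries alone (0.85, adjusted p = 0.172), and it held without the epididymis library (0.78, adjusted p = 0.0281). On plain library totals the value of Ces1d was 0.07 against eWAT (adjusted p = 0.792) and -0.19 against iWAT, and iBAT (719 to 979 CPM) overlapped eWAT (505 to 1113 CPM). Without the lymph node libraries the 4 remaining iWAT values lay between 1005 and 1124 CPM, the log2 fold change of iBAT over iWAT was 0.24, and the log2 fold change of iWAT over eWAT was 0.67 with an adjusted p of 0.0494, against 0.34 and 0.487 with all libraries. Ces1d has close relatives in the Ces1 cluster, but it supplied 82.0% to 96.2% of the cluster's counts in each library and shared 1.08% of its 50-base stretches with other genes.

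Pnpla3 (ENSMUSG00000041653.5, chromosome 15, 84167837 to 84187236, plus strand), a relative of Pnpla2 with activity on triglyceride and retinyl esters, had lowest, median and highest values of 450, 526 and 601 CPM in iBAT, 88.0, 352 and 777 CPM in iWAT, against 236, 558 and 693 CPM in eWAT. The iWAT libraries spanned 8.83-fold, the widest range of any gene of the set in any tissue, and both ends came from wild type mice, replicates 3 and 1. The log2 fold change was 0.43 (95% interval -0.37 to 1.22) against iWAT and 0.04 (-0.76 to 0.84) against eWAT, with adjusted p-values of 0.358 and 0.940. Without the lymph node libraries the value of Pnpla3 against iWAT was 0.03, and without the epididymis library that against eWAT was -0.11. Leaving out each mouse in turn moved the value against iWAT both ways, from 0.25 to 0.71.

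Aqp7 (ENSMUSG00000028427.13, chromosome 4, 41033074 to 41048139, minus strand), the channel through which glycerol leaves the fat cell, had lowest, median and highest values of 211, 241 and 257 CPM in iBAT, 54.5, 163 and 232 CPM in iWAT, against 95.7, 154 and 196 CPM in eWAT. After TMM all iBAT libraries were above all eWAT libraries, so that 3 of the 9 genes, Pnpla2, Ces1d and Aqp7, were higher in iBAT without overlap, against 18.8% of all tested genes, or 37.3% in either direction. The log2 fold change was 0.65 ± 0.28 SE against both iWAT (adjusted p = 0.0573) and eWAT (adjusted p = 0.0563), just outside the threshold. With the mouse as a replicate block the value against iWAT was 0.73 with an adjusted p of 0.0442, and that against eWAT was 0.66 with 0.0620. The value passed the threshold in 8 of 21 alternatives against iWAT and in 5 of 20 against eWAT, and on plain library totals it changed sign, to -0.10 and -0.20. Leaving out libraries with other tissues moved it both ways. Against iWAT it was 0.29 without the lymph node libraries (adjusted p = 0.187), 0.81 without the muscle library (0.0274) and 0.37 without all 4 such libraries (0.0408). Against eWAT it was 0.54 without the epididymis library (0.122) and 0.54 without all 4 (0.00119).

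**Figure D3:**
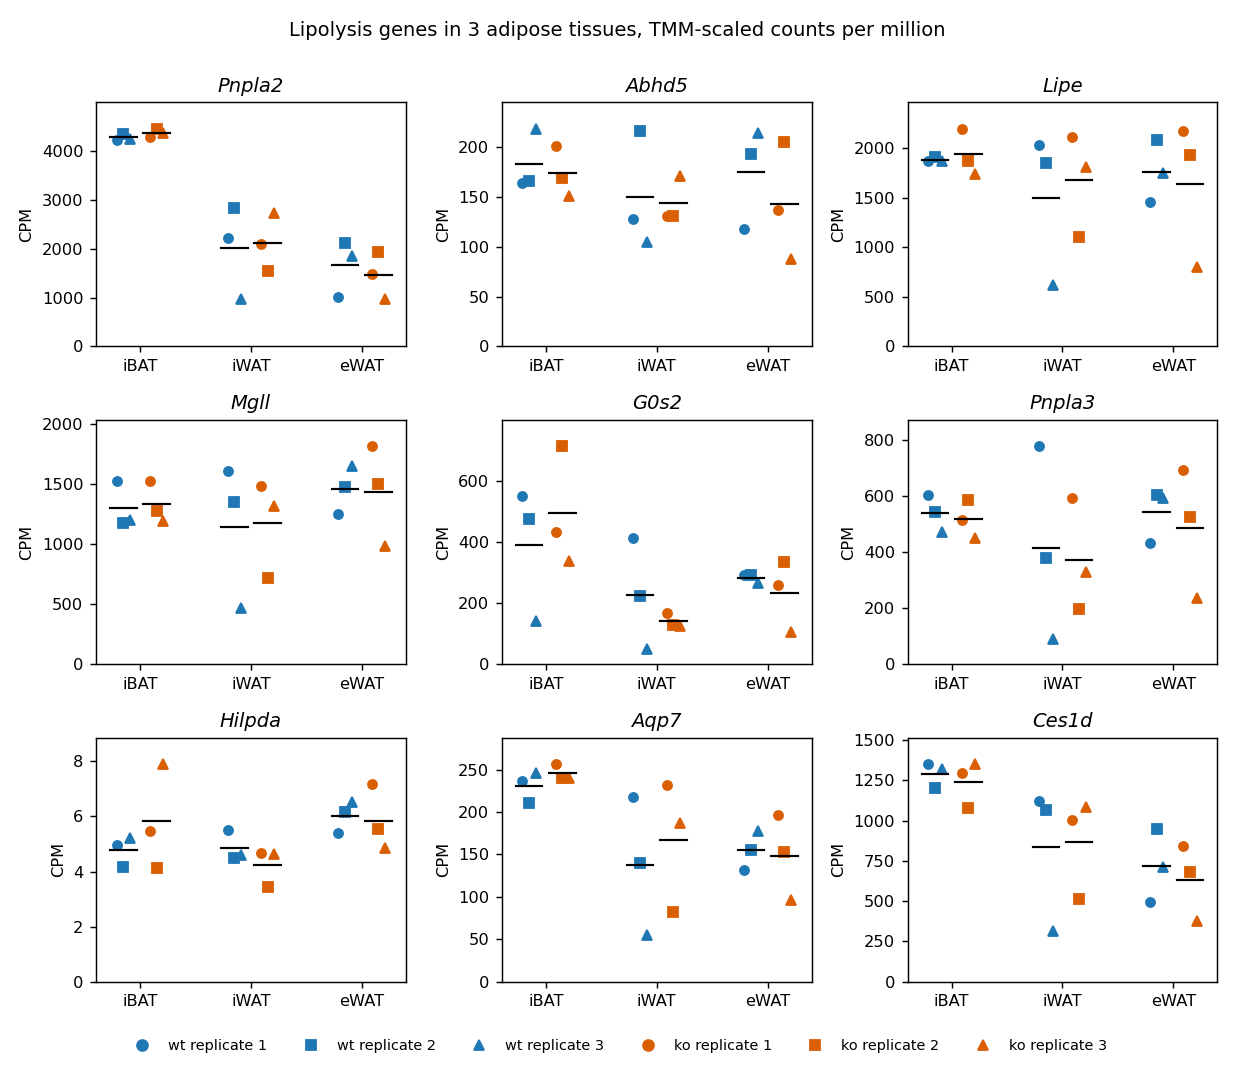
Each panel gives the TMM-scaled CPM of a gene in the 18 libraries, by tissue on the x axis, with wild type in blue, knockout in orange, a symbol for each replicate and the mean of each group of 3 as a line. On this scale the iBAT values of Pnpla2 lie between 4224 and 4460 CPM, above all white libraries, and the lowest iWAT value of 8 of the 9 genes is that of wt replicate 3 (blue triangles).

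Among the white libraries the lowest values of the set came mostly from the same libraries, and how many of all tested genes do so was not counted. iWAT wt replicate 3 held the lowest value of its tissue for 8 of the 9 genes, all except Hilpda, and eWAT ko replicate 3 held the lowest of its tissue for all 9, whereas in iBAT the lowest values were spread over 5 libraries. The adipocyte marker list (Adipoq, Plin1, Fabp4, Cidec, Lep and Retn) summed to 7605 CPM in iWAT wt replicate 3, where the highest iWAT library had 21665 CPM, and to 9958 CPM in eWAT ko replicate 3, where the highest eWAT library had 23001 CPM. The next lowest iWAT library was ko replicate 2, with 10891 CPM. In iBAT the same list ran only from 14667 to 16664 CPM. A list of 6 macrophage markers summed to 1456 CPM in iWAT wt replicate 3 and 1400 CPM in iWAT ko replicate 2, against 265 to 635 CPM in the other iWAT libraries. Among the white libraries this sum was lowest in eWAT ko replicate 3 (146 CPM). The low libraries were also those with the highest lymph node and epididymis sums, and the part of these cells and tissues in the low values was not tested.

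Ratios of 2 genes within a library do not depend on scaling, and since the 3 tissues came from the same mice they were compared within each mouse. Of 18 tests, 6 ratios in 3 tissue pairs, 12 had a Benjamini-Hochberg adjusted p of 0.0469 in an exact two-sided sign-flip permutation test over 6 mice, which stands for an unadjusted p of 0.03125, the smallest that 6 mice allow. The 5 ratios with Pnpla2 as the denominator share its counts and are not independent of each other. As a background, the count ratio of any other tested gene over Pnpla2 fell in all 6 mice from iWAT to iBAT for 71.0% of genes and from eWAT to iBAT for 78.5%, so low ratios in iBAT are those of most genes over a denominator that is high there. Between iWAT and eWAT the share lower in iWAT in all 6 mice was 8.61%.

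Lipe per Pnpla2 rose stepwise from iBAT to eWAT. Per kb, the lowest, median and highest values were 20.6%, 22.5% and 26.3% in iBAT, 32.7%, 35.6% and 51.9% in iWAT, and 42.3%, 50.8% and 75.8% in eWAT. All 6 mice had the order iBAT below iWAT below eWAT, with mean log2 differences of -0.78 ± 0.21 for iBAT against iWAT, -1.30 ± 0.26 for iBAT against eWAT and -0.52 ± 0.12 for iWAT against eWAT (SD, n = 6 mice, exact permutation, adjusted p = 0.0469 each). Abhd5 per Pnpla2 gave the same order in all 6 mice, with medians of 1.95%, 3.53% and 5.04% per kb and mean log2 differences of -0.85 ± 0.29, -1.31 ± 0.22 and -0.47 ± 0.32 in these comparisons (SD, n = 6 mice, exact permutation, adjusted p = 0.0469 each).

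The inhibitors behaved less uniformly. G0s2 per Pnpla2 had medians of 36.3% in iBAT, 27.5% in iWAT and 54.7% in eWAT per kb. It was lower in iBAT than in eWAT in all 6 mice (mean log2 difference -0.83 ± 0.73) and lower in iWAT than in eWAT in all 6 (-1.07 ± 0.32; SD, n = 6 mice, exact permutation, adjusted p = 0.0469 each). Between iBAT and iWAT it was higher in 4 mice and lower in 2 (0.24 ± 0.64, exact permutation adjusted p = 0.438). Hilpda per Pnpla2 had medians of 0.329%, 0.611% and 1.15% per kb, was lower in iBAT than in eWAT in all 6 mice (-1.72 ± 0.28, exact permutation adjusted p = 0.0469), and was lower in 5 of 6 mice in iBAT than in iWAT (-0.96 ± 0.67, exact permutation adjusted p = 0.0804) and in iWAT than in eWAT (-0.77 ± 0.70, exact permutation adjusted p = 0.113).

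Pnpla3 per Pnpla2 was similar in iBAT and iWAT, with medians of 23.7% and 25.3% per kb, and higher in eWAT at 59.1%. It was lower in all 6 mice in iBAT than in eWAT (mean log2 difference -1.43 ± 0.34) and in iWAT than in eWAT (-1.01 ± 0.51; SD, n = 6 mice, exact permutation, adjusted p = 0.0469 each), and between iBAT and iWAT it was lower in 4 of 6 mice (-0.42 ± 0.68, exact permutation adjusted p = 0.298). Mgll per Lipe, the only ratio without Pnpla2, had medians of 79.2%, 84.3% and 97.8% per kb and was lower in iBAT than in eWAT in all 6 mice (-0.35 ± 0.29, exact permutation adjusted p = 0.0469), where 33.3% of all other tested genes were lower over Lipe in all 6. It was lower in 4 of 6 mice in iBAT than in iWAT (-0.08 ± 0.14, exact permutation adjusted p = 0.298) and in 5 of 6 in iWAT than in eWAT (-0.28 ± 0.27, exact permutation adjusted p = 0.0804).

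Between iWAT and eWAT, 4 of the 5 ratios over Pnpla2 (those of Lipe, Abhd5, G0s2 and Pnpla3) were lower in iWAT in all 6 mice. Without the mice of the lymph node libraries, the differences of these 4 ratios between iWAT and eWAT were -0.52 for Lipe, -0.59 for Abhd5, -0.95 for G0s2 and -0.78 for Pnpla3, on the log2 scale, in the 4 mice left.

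**Figure D4:**
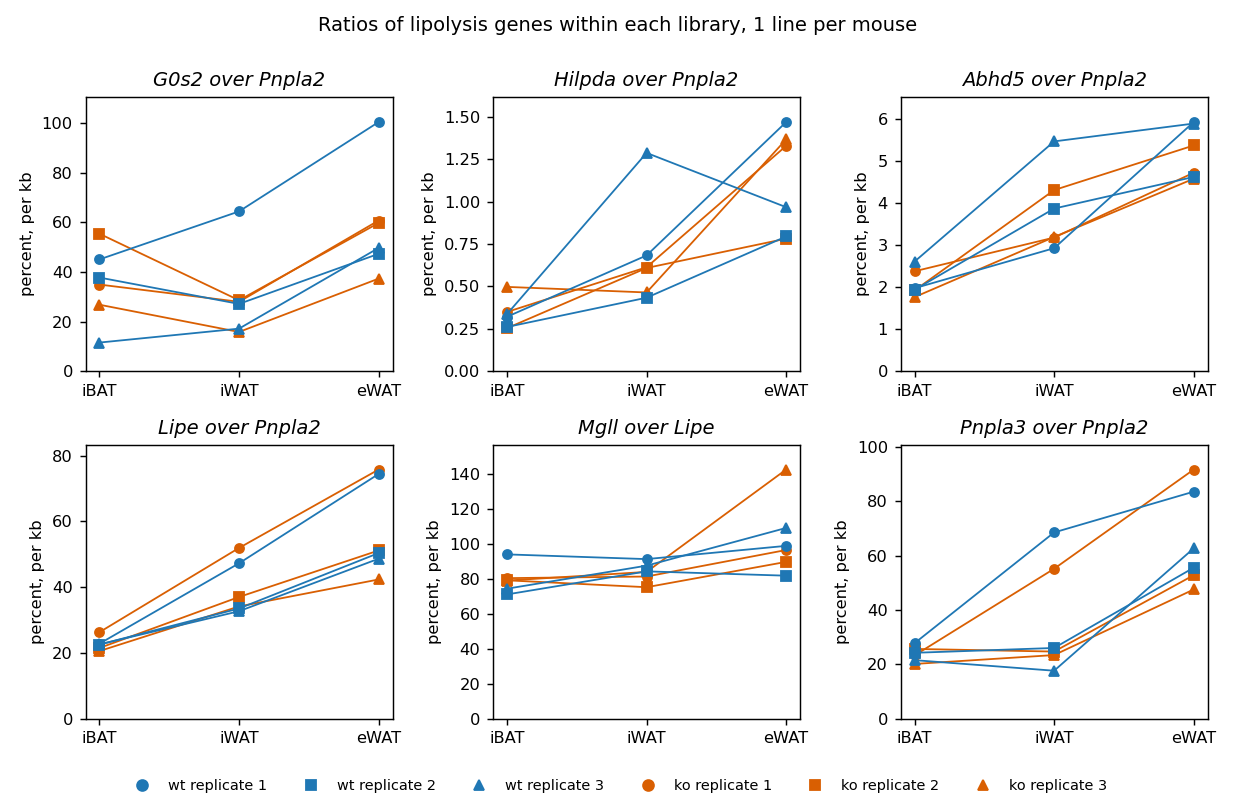
Each line is a mouse, and the y axis gives the ratio of 2 genes within a library as percent of their levels per kb, in iBAT, iWAT and eWAT, with wild type in blue and knockout in orange. For Lipe over Pnpla2 and Abhd5 over Pnpla2 all 6 lines rise from iBAT over iWAT to eWAT.

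Between genotypes, the question was whether loss of Gm15551 changed the set. Across tissues 0 of the 9 genes were called by edgeR, 0 had an unadjusted p under 0.05, and edgeR called 0.00534% of all tested genes, which is Gm15551 alone. DESeq2 also called 0 of the 9, and 4 genes of all. The log2 fold changes of knockout against wild type ran from -0.21 (G0s2, 95% interval -0.95 to 0.53) to 0.10 (Aqp7, -0.37 to 0.58), and the smallest unadjusted edgeR p was 0.432, for Abhd5 (-0.14, -0.50 to 0.23). The fit across tissues takes the 3 libraries of a mouse as independent, which these intervals share. Within tissues 0 of the 9 were called in iBAT, iWAT or eWAT by edgeR or DESeq2, with 0 unadjusted p-values under 0.05, and edgeR called 0%, 0% and 0.00534% of all tested genes, where DESeq2 called 14, 4 and 10 genes. For 0 of the 9 did the wild type and knockout libraries separate in any tissue, against 4.94%, 4.92% and 5.25% of all tested genes in iBAT, iWAT and eWAT.

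The intervals set what could be seen with 3 mice per genotype, in a fit where all groups share a common estimate of the spread. Those for iBAT therefore also carry the spread of the white libraries. For Pnpla2 the log2 fold change was 0.03 (95% interval -0.79 to 0.85) in iBAT, with wild type values of 4224, 4355 and 4255 CPM and knockout values of 4294, 4460 and 4359 CPM. In iWAT the log2 fold change of Pnpla2 was 0.08 (-0.74 to 0.89), and in eWAT it was -0.18 with an adjusted p of 1. The largest estimate within a tissue was that of G0s2 in iWAT, -0.70 (-2.02 to 0.62, unadjusted p = 0.274), where the wild type values of 48.1 to 411 CPM enclosed all knockout values. All 9 estimates in eWAT were below 0, from -0.29 for Abhd5 to -0.02 for Mgll, and eWAT ko replicate 3, the library with epididymis transcripts, was the lowest of the tissue for every gene. Without that library 8 of the 9 estimates were above 0, up to 0.22 for Lipe, and Abhd5 was at -0.03. The joint test of a genotype effect that differs between tissues called 0 of the 9, with a smallest unadjusted p of 0.405 for Hilpda, and edgeR called 0% of all tested genes. The 6 ratios were also set against genotype in each tissue, and of these 18 tests the smallest exact two-sided permutation p was 0.1, for Mgll per Lipe in iWAT, the smallest that 3 against 3 allow (adjusted p = 0.969).

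**Figure D5:**
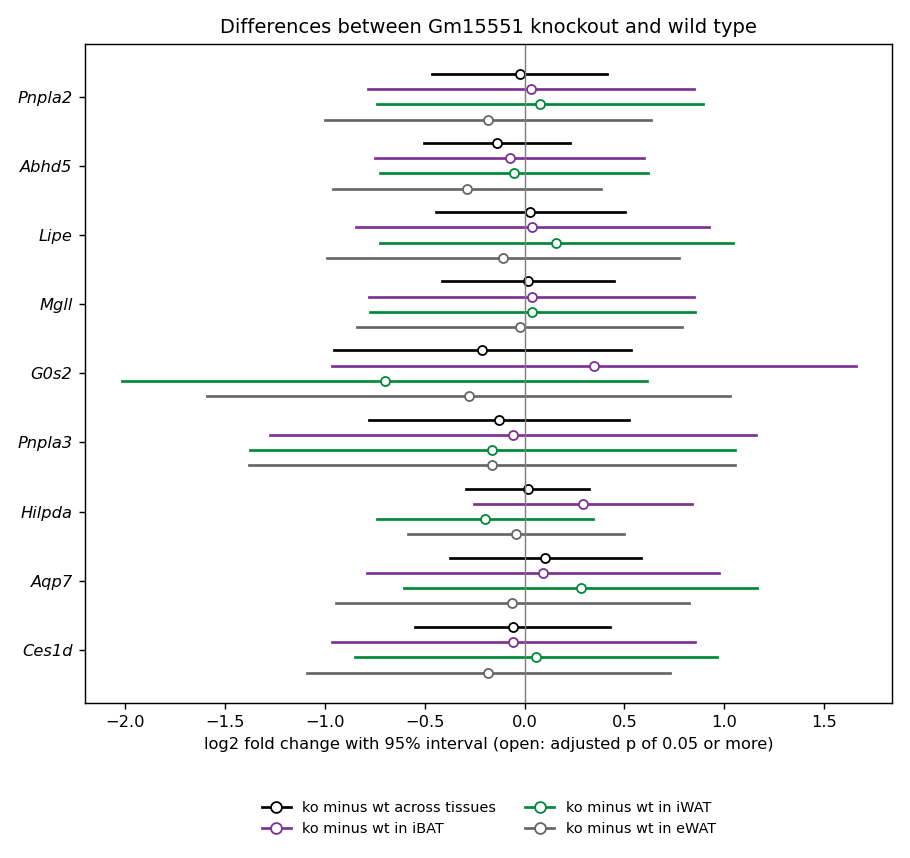
Points give the log2 fold change of knockout against wild type for each gene across tissues (black) and within iBAT, iWAT and eWAT, with 95% intervals. Every interval includes 0, and the widest are those of G0s2 and Pnpla3.

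Other genes of lipolysis and its control were counted from a list of 85 genes, 74 of which were tested. In iBAT against iWAT 40 were called, 24 higher and 16 lower, in iBAT against eWAT 44 were called, 28 higher and 16 lower, and in iWAT against eWAT 11 were called, 8 higher and 3 lower. As shares of the tested genes of the list these are 54.1%, 59.5% and 14.9%, beside 54.3%, 54.6% and 10.2% of all genes. Without the 4 libraries with other tissues the filter kept 76 of the list, of which 46, 50 and 18 were called (60.5%, 65.8% and 23.7%, beside 45.3%, 57.1% and 10.2% of all genes in that fit), and 16 of the 18 were higher in iWAT. On plain library totals 60 of the 74 were called in iBAT against iWAT, 17 higher and 43 lower, and 63 in iBAT against eWAT, 21 higher and 42 lower, so the split of the counts below is also that after TMM. The genes of the list named below were called in the same direction without the 4 libraries and on plain library totals. The rule for named genes also gave Aqp9 and Irf4 in iWAT against eWAT. These were not called without the 4 libraries (edgeR adjusted p = 0.210 and 0.0577) and are not described below.

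Genes upstream of the lipases were called in both directions. The counts by group that follow for iBAT against iWAT stand beside 54.3% of all tested genes called and 24.0% called as higher. Of 16 tested genes of the cyclic AMP and protein kinase A arm, 12 were called in iBAT against iWAT, 8 of them higher. Gnas, the stimulatory G protein subunit, was at 3775 ± 409 CPM in iBAT and 707 ± 150 CPM in iWAT (SD, n = 6 each; log2 fold change 2.42 ± 0.16 SE, edgeR adjusted p = 4.65e-09), and Gnai1, an inhibitory subunit, was lower in iBAT (-1.60 ± 0.24, adjusted p = 2.74e-05). Of 11 receptors, 4 were called, 1 higher and 3 lower (5 without the 4 libraries with other tissues, 1 higher and 4 lower). The beta-1 adrenergic receptor Adrb1 was higher in iBAT than in iWAT (34.7 ± 14.5 against 5.33 ± 1.87 CPM, SD, n = 6 each; log2 fold change 2.69 ± 0.31 SE, adjusted p = 1.9e-06), and the alpha-2A receptor Adra2a, which inhibits lipolysis, was lower (4.53 ± 2.31 CPM in iWAT, adjusted p = 4.96e-07), with an iBAT mean of 0.182 CPM that is within the range that 3 counts give, 0.0728 to 0.235 CPM, so no fold is given.

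Among 10 lipid droplet partners, 6 were called in iBAT against iWAT, 4 higher and 2 lower. Plin3 was higher (log2 fold change 1.86 ± 0.15 SE, edgeR adjusted p = 3.23e-08) and Plin4 lower (-1.58 ± 0.35, adjusted p = 0.00108). Among 10 tested genes of glycerol and fatty acid handling, 4 were called, 3 higher and 1 lower (6 without the 4 libraries with other tissues, 3 in each direction), led by the mitochondrial glycerol phosphate dehydrogenase Gpd2 (1217 ± 265 against 103 ± 40.5 CPM, SD, n = 6 each; log2 fold change 3.56 ± 0.29 SE, adjusted p = 4.39e-08). Among 15 tested hydrolases outside the set, 8 were called, 5 higher and 3 lower (12 of 17 tested without the 4 libraries with other tissues, 6 in each direction), with Ddhd2 higher (1.81 ± 0.18, adjusted p = 3e-07) and Ces1f, a relative of Ces1d, lower (-1.63 ± 0.33, adjusted p = 0.000488). Of 12 transcription and protein level regulators, 6 were called, 3 in each direction, with Ppara higher in iBAT (3.97 ± 0.44, adjusted p = 1.35e-06) and Snai1 lower (-1.84 ± 0.23, adjusted p = 5.94e-06). Without the 4 libraries with other tissues 5 of these regulators were called, 3 higher and 2 lower.

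In iWAT against eWAT, where none of the 9 genes was called, single genes of the list stood out. Npr3, the clearance receptor of natriuretic peptides, was lower in iWAT (114 ± 88.8 against 459 ± 179 CPM, SD, n = 6 each; log2 fold change -2.03 ± 0.44 SE, edgeR adjusted p = 0.00854). Hcar2, a receptor that inhibits lipolysis, was higher in iWAT (38.8 ± 15.5 against 11.8 ± 5.50 CPM; 1.72 ± 0.43, adjusted p = 0.0188), as was the cyclic AMP phosphodiesterase Pde4d (9.03 ± 2.31 against 2.40 ± 1.08 CPM; 1.89 ± 0.27, adjusted p = 0.000277).

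Finally, each gene was set beside the genes with the most similar profile, measured as the root mean square (RMS) difference of centred log2 CPM over the 18 libraries among 9632 genes with a mean of at least 10 CPM. Libraries share tissue and purity, so nearness over them is a description. The nearest genes were Mrap for Lipe (0.14), Prxl2a for Ces1d (0.14), Coq3 for Pnpla2 (0.16), Bscl2 for Abhd5 (0.16), Cd59a for Aqp7 (0.16), Rnf11 for Mgll (0.18), Pip4p2 for Hilpda (0.20), Trp53inp2 for Pnpla3 (0.27) and Hoxc5 for G0s2 (0.47). The second nearest were Ttc7b for Lipe (0.16), Adhfe1 for Ces1d (0.15), S100a1 for Pnpla2 (0.17), Fah for Abhd5 (0.19), Zfp641 for Aqp7 (0.22), Cd36 for Mgll (0.19), Lnpep for Hilpda (0.21), Hoxc5 for Pnpla3 (0.27) and Tef for G0s2 (0.50). The nearest gene to G0s2 was thus farther away than that of any other gene of the set, beside a median distance from G0s2 to all genes compared of 0.97. Within the set the closest pair was Lipe and Mgll, the consecutive enzymes of the later steps (0.23), followed by Aqp7 and Ces1d (0.27), and the farthest was G0s2 and Hilpda, the inhibitors of the same lipase (0.93). Pnpla2 was nearest to Ces1d (0.32) and lay at 0.59 from its coactivator Abhd5.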

How the data were processed

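After trimming with cutadapt, the authors ran salmon against GENCODE M22 (GRCm38), alone or with RNAcentral. They deposited estimated counts per gene, whole and not normalised. How transcripts were combined into genes is not given in the sources used here, and salmon divides reads that genes share by a model. Tissue, genotype and replicate came from the library titles. The labels tie the 3 tissues of a mouse, whose deviations from the group means had correlations of -0.17 to 0.33 between tissues.

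Genes were filtered with filterByExpr by group, scaled by TMM and tested in edgeR 4.0.16 (R 4.3.3, quasi-likelihood) with tissue and genotype terms and no mouse block, or with a mean per group for genotype within a tissue and the interaction. P-values were adjusted by Benjamini-Hochberg over 18728 genes (threshold 0.05). SE is the log2 fold change over the square root of F. Ratios were tested by exact sign-flip permutation (scipy 1.17.1), adjusted over 18 tests. Lengths, positions and shared 50-base stretches came from GENCODE M21, where 54094 identifiers matched without version. A count of 0 allows up to 3 counts, or 0.0728 to 0.235 CPM by library, which covers counting error only. Alternatives were DESeq2 1.42.0 and its size factors, other filters, no mitochondrial genes, limma 3.58.1, a replicate block, subsets of libraries and leaving out each mouse. Leaving out libraries with other tissues, and plain library totals without TMM, were chosen after seeing the data. The 9 genes, the lists and the rule for named genes were chosen with earlier results of these data known. The rule named the 9 genes, the called gene with the smallest p in each direction of each pathway group, of which some are printed, and the 2 nearest profiles of each gene.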

Additional observations from a re-analysis of the deposited data

Results flagged for a closer look

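In 45 groups of 6 libraries (9 genes and 6 ratios in 3 tissues) the gap of the highest or lowest library to its neighbour was compared with the range of the group, and 6 libraries lay apart, where chance gives about 1 in 20 groups. Lipe was highest in iBAT ko replicate 1 (2200 CPM). Hilpda was highest in iBAT ko replicate 3 (7.92 CPM). G0s2 was lowest in eWAT ko replicate 3 (104 CPM), the library with epididymis and sperm transcripts. G0s2 per Pnpla2 was highest in the same mouse, wt replicate 1, in both white tissues, with 64.4% per kb in iWAT and 100.5% in eWAT. Hilpda per Pnpla2 was highest in iWAT wt replicate 3 (1.29% per kb), a library with lymph node transcripts. The causes were not tested. The genotype effect on the 9 genes did not pass the test for a difference between tissues.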

How the results depend on the processing

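Of the 4 calls between tissues, 67 of 82 alternative fits kept the call and 0 changed the sign. The calls were unequal in this. Pnpla2 kept its call in 19 of 21 fits against iWAT and 20 of 20 against eWAT. Ces1d kept that against eWAT in 16 of 20, and G0s2 that against iWAT in 12 of 21. On plain library totals, without TMM, 4 genes were called in iBAT against iWAT and 6 in iBAT against eWAT, instead of 2 each. Signs turned there with a call against iWAT for Abhd5 (-0.51), Lipe (-0.50), Mgll (-0.58) and Hilpda (-0.57), and against eWAT for Abhd5 (-0.68), Lipe (-0.68) and Pnpla3 (-0.81). On totals without mitochondrially encoded genes the counts were 1 and 3. DESeq2 called 3 of the 9 in each of these comparisons, all higher in iBAT, as did edgeR with DESeq2 size factors. With mitochondrially encoded genes left out and TMM kept, the counts were 3 and 2. The number of genes called in iBAT against iWAT, 2, ranged from 1 to 3 when a mouse was left out, and was 1 with the mice of replicates 1 and 3 only, 0 in wild type libraries alone and 1 without the lymph node libraries. In iBAT against eWAT the number, 2, ranged from 1 to 4 when a mouse was left out and was 1 in wild type libraries alone. In iWAT against eWAT the number, 0, was 1 without the lymph node libraries and 2 without all 4 libraries that hold other tissues. In wild type alone there are fewer libraries; the cause of the other changes was not tested. Of 639 fits of genotype values 0 passed the threshold, and the sign changed in 78, all uncalled; between tissues it changed in 51 of 558, with a call only in the 7 given above. With longest transcripts as lengths, 5 genes kept their rank in eWAT. With the mouse as a replicate block 3 genes were called in iBAT against iWAT, the added gene being Aqp7, and no other call of the 9 genes changed. Same-numbered wild type and knockout mice are different animals, and their deviations had correlations of -0.47 to 0.55; with the number as a replicate block 0 of the 9 genes were called between genotypes, and the count over all genes went from 1 to 3 across tissues. That fit and the main fit across tissues take the 3 libraries of a mouse as independent. With counts summed per mouse 0 of all genes and 0 of the 9 were called, and with the mouse as a random effect 1 and 0. Over all genes DESeq2 called 4, 14, 4 and 10 genes between genotypes, across tissues and in iBAT, iWAT and eWAT, where edgeR called 1, 0, 0 and 1. Over all genes in iWAT against eWAT edgeR called 1911, but 1149 with at least 10 counts in every library, 854 with only these tissues, 211 with the mice of replicates 1 and 3, 247 in wild type alone and as few as 750 without a mouse (ko replicate 2). In wild type alone 6595 and 6574 genes were called in iBAT against iWAT and eWAT, against 10164 and 10220. For the ratios, 15 of 18 tests passed with no replicate block, against 12, and the sign changed in 1 of 162 alternatives, G0s2 per Pnpla2 between iBAT and iWAT in wild type mice. With 5 or fewer mice an exact test cannot pass the threshold (smallest p 0.0625). The number of mice, 3 per genotype, and the spread shared by all groups limit the genotype intervals.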
